A study of Mus musculus with 18 samples.

Results

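The genes described here encode the proteins that cut, export and dice microRNA precursors: Dicer1, Drosha (formerly Rnasen), Dgcr8, Xpo5, Tarbp2 and Prkra. They were taken by their gene symbols and older synonyms. All 6 had 1 row each among the 23332 rows of the gene-level table, and together they had 164 of the 229581 probe sets of the exon-level table. Dicer1 had 40 probe sets, Drosha 43, Dgcr8 21, Xpo5 39, Tarbp2 11 and Prkra 10. RNA of fibroblasts grown from mouse embryos (MEFs) was hybridised to Affymetrix exon arrays, 3 per genotype. The genotypes were AGO2 -/- (AGO2 null), Dicer -/- (Dicer null) and wild-type. Each of the 9 arrays gave a gene-level and an exon-level sample, 18 in all. The labels name no drug or inducer in any group, and all cells grew for 3 days to subconfluency in medium with 7% fetal calf serum. The labels trace the Dicer null and wild-type cells to the same source and the AGO2 null cells to another, so that source and genotype cannot be told apart for AGO2. They call the arrays biological replicates but describe no more than 1 line per genotype. Whether the arrays came from separate cultures is not stated. The p-values below measure the spread between samples of a line, which may be technical. The age of the embryos and the exons removed in each null line were not used here.

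A microRNA is cut out of a long primary transcript in the nucleus by the Microprocessor, in which DROSHA is the RNase III enzyme and DGCR8 the RNA-binding partner that recognises the hairpin. Exportin 5, the product of Xpo5, carries the hairpin to the cytoplasm. There DICER removes the loop with the help of the double-stranded RNA binding proteins TRBP (Tarbp2) and PACT (Prkra), and the resulting duplex is loaded into an Argonaute protein such as AGO2. The arrays measured messenger RNA of these factors and not mature microRNAs.

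A pair of hairpins shows what these enzymes act on. The hairpin of Mir1306 is given because it lies within the Dgcr8 gene, whose own message the Microprocessor is known to cut. RefSeq places it on the minus strand of GRCm38.p6 at chr16:18284239-18284317, and capitals mark the mature arms, with 19 bases between them.
Mir1306 hairpin: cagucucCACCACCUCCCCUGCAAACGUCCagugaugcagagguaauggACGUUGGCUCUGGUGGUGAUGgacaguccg
The hairpin of let-7g is given because LIN28 proteins, one of which differed widely between the lines, bind let-7 precursors at a GGAG motif and block their processing by DICER. It lies on the plus strand of the same build at chr9:106178840-106178927, with the motif at bases 56 to 59 in capitals. In the mature microRNA, at chr9:106178846-106178867, capitals mark the seed, bases 2 to 8, which pairs with target messages.
Mirlet7g hairpin: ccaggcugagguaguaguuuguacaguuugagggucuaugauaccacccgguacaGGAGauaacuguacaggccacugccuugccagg
mmu-let-7g-5p: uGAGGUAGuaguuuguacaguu
Searched as the letters GGAG on the RNA strand, the motif occurred in 9 of the 11 let-7 hairpins of the RefSeq table (81.8%) and in 447 of all 1005 hairpins (44.5%).

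At the gene level, Dicer1 was lower and Drosha higher in Dicer null than in wild-type cells, and the other 4 genes did not pass the test. In AGO2 null cells Dicer1 and Xpo5 were higher than in the wild type, by 1.17-fold and 1.32-fold. Dgcr8 and Prkra did not pass in any comparison. All values are log2 units as deposited, differences are the first group named minus the second, and a row was called at an adjusted p under 0.05 from limma over all rows of its table. Of the 6 genes, 2 were called in each comparison, against 26.8% of all rows for Dicer null minus wild type (11.2% higher, 15.7% lower), 21.0% for AGO2 null minus wild type (11.8% higher, 9.17% lower) and 26.3% for AGO2 null minus Dicer null (16.9% higher, 9.45% lower). These shares of the members, 1 gene in 3, are near the background. The median difference of the 6 genes was 0.09, -0.03 and -0.07 in that order, beside -0.01, 0.02 and 0.03 over all rows. The 2 comparisons with the wild type share its 3 samples.

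Dicer1 encodes the enzyme that one of the lines lacks. Its gene-level values (row 6803314) were 9.40, 9.42 and 9.39 in AGO2 null cells, 8.42, 8.35 and 8.35 in Dicer null cells and 9.17, 9.17 and 9.20 in wild-type cells. The 3 groups did not overlap, with Dicer null lowest and AGO2 null highest. Dicer null cells averaged 8.37 ± 0.04 against 9.18 ± 0.02 in the wild type (SD, n = 3 each), a difference of -0.80 (SE 0.04, 95% interval -0.90 to -0.71, limma adjusted p = 4.42e-06), or 1.74-fold lower. The Dicer null values still lay above the median of all rows, which was 6.28 to 6.37 per sample. In a bulk sample, fewer cells with the message and less message per cell cannot be told apart. AGO2 null cells averaged 9.40 ± 0.01, a difference of 0.23 from the wild type (SE 0.04, interval 0.13 to 0.32, limma adjusted p = 0.00628). After quantile normalization this rise was 0.13 and no longer passed (limma adjusted p = 0.0757). AGO2 null exceeded Dicer null cells by 1.03 (2.04-fold, limma adjusted p = 2.1e-06).

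**Figure D1:**
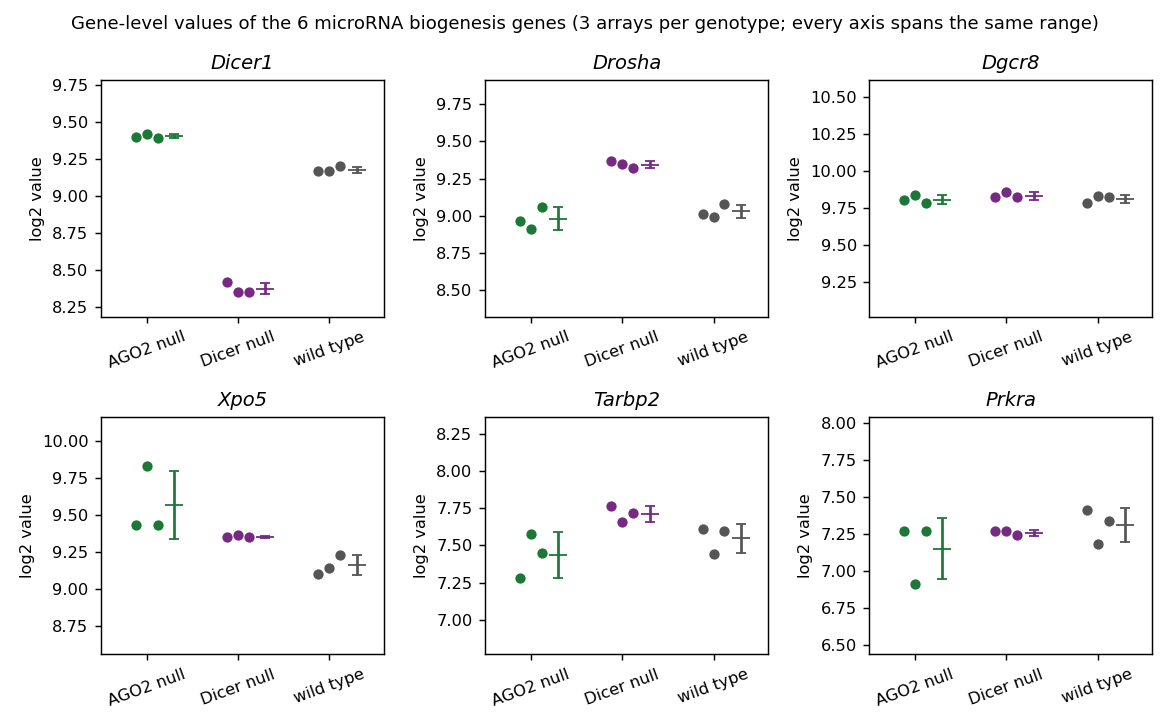
Gene-level log2 values of the 6 genes, with 1 point per sample and bars at the mean ± SD of 3 samples, for AGO2 null, Dicer null and wild-type cells from left to right. Dicer1 is lowest in all 3 Dicer null samples, Drosha highest there, and 1 AGO2 null sample of Xpo5 stands at 9.83 above the other two at 9.43.

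Drosha, the nuclear RNase III enzyme of the Microprocessor, had gene-level values (row 6828862) of 8.96, 8.91 and 9.06 in AGO2 null cells, 9.37, 9.35 and 9.32 in Dicer null cells and 9.01, 8.99 and 9.08 in wild-type cells. All Dicer null samples lay above all others, while AGO2 null and wild-type samples overlapped. Dicer null cells averaged 9.34 ± 0.02 against 9.03 ± 0.04 in the wild type, a difference of 0.32 (SE 0.05, interval 0.19 to 0.44, limma adjusted p = 0.00294), or 1.25-fold. AGO2 null minus wild type was -0.05 (interval -0.17 to 0.07, limma adjusted p = 0.6), and passed the test only after quantile normalization, at -0.16 (limma adjusted p = 0.0456). Dgcr8, the partner of DROSHA, had values (row 6844329) of 9.80, 9.84 and 9.78 in AGO2 null cells, 9.82, 9.86 and 9.82 in Dicer null cells and 9.78, 9.83 and 9.82 in wild-type cells. The groups overlapped throughout. The intervals for Dgcr8 were narrow, -0.07 to 0.12 for Dicer null minus wild type (limma adjusted p = 0.772) and -0.10 to 0.09 for AGO2 null minus wild type (limma adjusted p = 0.978).

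Xpo5 encodes the export receptor of precursor hairpins. Its gene-level values (row 6850683) were 9.43, 9.83 and 9.43 in AGO2 null cells, 9.35, 9.36 and 9.35 in Dicer null cells and 9.10, 9.14 and 9.23 in wild-type cells. Every sample of either null line lay above every wild-type sample, and AGO2 null replicate 2 stood above its 2 fellows. AGO2 null cells averaged 9.56 ± 0.23 against 9.16 ± 0.07 in the wild type, a difference of 0.41 (SE 0.11, interval 0.16 to 0.66, limma adjusted p = 0.0331). This call was lost after quantile normalization (0.31, limma adjusted p = 0.0901), in a fit of the 6 samples compared (limma adjusted p = 0.0997), and without any 1 Dicer null or wild-type sample (limma adjusted p between 0.057 and 0.0992). Dicer null minus wild type was 0.19 (interval -0.06 to 0.44, limma adjusted p = 0.266), and passed in the fit of the 6 samples compared (limma adjusted p = 0.0315) and without AGO2 null replicate 2 (limma adjusted p = 0.0175).

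Neither DICER partner passed the test against the wild type at the gene level. Tarbp2, which encodes TRBP, had values (row 6833430) of 7.28, 7.58 and 7.45 in AGO2 null cells, 7.77, 7.66 and 7.72 in Dicer null cells and 7.61, 7.44 and 7.60 in wild-type cells. Dicer null samples were the highest, and AGO2 null and wild-type samples overlapped. AGO2 null minus Dicer null was -0.28 (interval -0.48 to -0.07), with a limma adjusted p of 0.0521 that fell under 0.05 after quantile normalization, median centring, an offset of 50 or a filter on level, and without AGO2 null replicate 2 (0.0182). Prkra, which encodes PACT, had values (row 6888002) of 7.27, 6.91 and 7.27 in AGO2 null cells, 7.27, 7.27 and 7.24 in Dicer null cells and 7.41, 7.18 and 7.34 in wild-type cells. The groups overlapped, and the differences from the wild type were -0.16 for AGO2 null (limma adjusted p = 0.356) and -0.05 for Dicer null cells (limma adjusted p = 0.793).

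Values that the authors summarised per gene need not follow every probe set, so the median of a gene's exon probe sets was tested in the same way over 14519 genes. By this measure 4 of the 6 genes were called for Dicer null minus wild type (background 32.4%), 2 for AGO2 null minus wild type (24.0%) and 3 for AGO2 null minus Dicer null (30.6%). Dicer1 was 8.20 ± 0.07 in Dicer null cells against 8.88 ± 0.09 in the wild type (-0.69, limma adjusted p = 0.000239), and 9.37 ± 0.08 in AGO2 null cells (0.48 above the wild type, limma adjusted p = 0.00392). Xpo5 was 9.09 ± 0.19 in AGO2 null and 8.81 ± 0.08 in Dicer null cells, against 8.27 ± 0.17 in the wild type. Both differences passed, 0.82 for AGO2 null (limma adjusted p = 0.00078) and 0.54 for Dicer null cells (limma adjusted p = 0.00677). They are larger than the gene-level differences of 0.41 and 0.19. Tarbp2 stood at 7.35 ± 0.19 in AGO2 null and 8.05 ± 0.05 in Dicer null cells, against 7.61 ± 0.14 in the wild type. Its Dicer null minus wild type difference was 0.44 (limma adjusted p = 0.0151) and its AGO2 null minus Dicer null difference -0.70 (limma adjusted p = 0.00113). Drosha passed again in Dicer null cells, at 0.31 (limma adjusted p = 0.0376), and Dgcr8 and Prkra again did not pass.

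Along Dicer1, the fall in Dicer null cells ran through most of the gene's probe sets. Of the 40, 33 were called lower, none higher and 7 not called, against 21.1% of all probe sets called in this comparison (8.93% higher, 12.2% lower). The median difference was -0.82, beside -0.03 over all probe sets, and 30 of the 40 lay between -1.1 and -0.5. At the median probe set 56.5% of the wild-type array signal was left. This is a ratio of deposited signals whose background correction is not known, and need not be the share of message left. The 33 called probe sets had wild-type values of 7.01 to 11.42 and the other 7 had 5.70 to 7.62, so those that did not pass were among the dimmer ones. No probe coordinates were used here, so the probe sets are ordered by value and not by position, and none was matched to the exons removed in the null line.

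**Figure D2:**
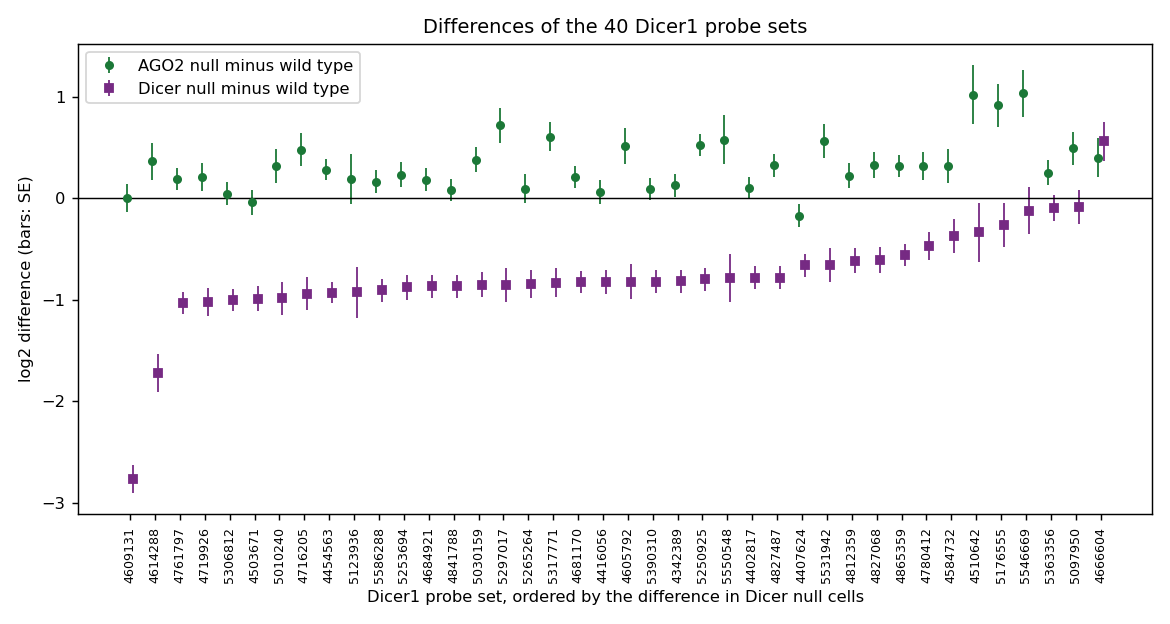
Log2 differences from the wild type, with bars of 1 SE, of all 40 Dicer1 probe sets for AGO2 null and Dicer null cells, ordered from left to right by the Dicer null difference. The Dicer null points lie below 0 at 39 of the 40 probe sets, within a narrow band for most of them and at -2.76 for probe set 4609131, and the AGO2 null points lie above 0 at 38.

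A pair of Dicer1 probe sets fell much further than the rest. Probe set 4609131 read 8.67, 9.04 and 8.75 in AGO2 null cells, 6.22, 5.94 and 6.01 in Dicer null cells and 8.76, 8.78 and 8.91 in wild-type cells. AGO2 null and wild-type samples overlapped, and all Dicer null samples lay far below, with a difference from the wild type of -2.76 (SE 0.14, limma adjusted p = 1.26e-06). Probe set 4614288 read 8.06, 8.34 and 7.93 in AGO2 null cells, 6.27, 6.03 and 5.79 in Dicer null cells and 7.46, 7.96 and 7.82 in wild-type cells. Its difference was -1.72 (SE 0.18, limma adjusted p = 0.000157). The next lowest differences were close together, -1.03 at 4761797 and -1.02 at 4719926, followed by 5306812. At the other end, probe set 4666604 was the one Dicer1 probe set with a higher mean in Dicer null cells. It read 7.27, 7.57 and 7.83 in AGO2 null cells, 7.81, 7.68 and 7.67 in Dicer null cells and 7.04, 6.92 and 7.52 in wild-type cells. Its difference of 0.56 (SE 0.19) had a limma adjusted p of 0.0699 as deposited, and passed after quantile normalization, median centring, the filter on level and without wild type replicate 3. The other highest probe sets, 5097950 (-0.09), 5363356 (-0.10), 5546669 (-0.12) and 5176555 (-0.27), were not called.

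Such departures are measured by the splicing index, in which the median of all probe sets of the gene in a sample is subtracted from each. It was tested over 84076 probe sets, which hold 132 of the members' 164 and 34 of Dicer1's 40. In Dicer null minus wild type, 11 of the 132 were called, 2 higher and 9 lower, against 6.85% of all tested (3.12% higher, 3.73% lower). For Dicer1 the index difference was -2.08 at 4609131 (limma adjusted p = 3.55e-05), -0.35 at 4761797 (limma adjusted p = 0.0375) and 1.25 at 4666604 (limma adjusted p = 0.00157). The index difference of 4666604 holds the fall of the subtracted Dicer1 median (-0.69) beside its own level difference of 0.56, which was not called. Its wild-type values lay near the exon-level sample medians of 6.93 to 7.10. Probe set 4614288 was among those not tested. The calls of 4609131 and 4666604 held in every alternative run for the index, with the mean of the probe sets in place of the median included, and that of 4761797 was lost in 9 of 12. Between AGO2 null and Dicer null cells the index of 4609131 was higher in AGO2 null cells, at 1.6 (limma adjusted p = 0.000222) and that of 4666604 was lower in AGO2 null cells (-1.33, limma adjusted p = 0.0013). In this comparison 4 of the 132 were called higher and 4 lower, against 6.39% of all tested (2.77% higher, 3.63% lower).

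**Figure D3:**
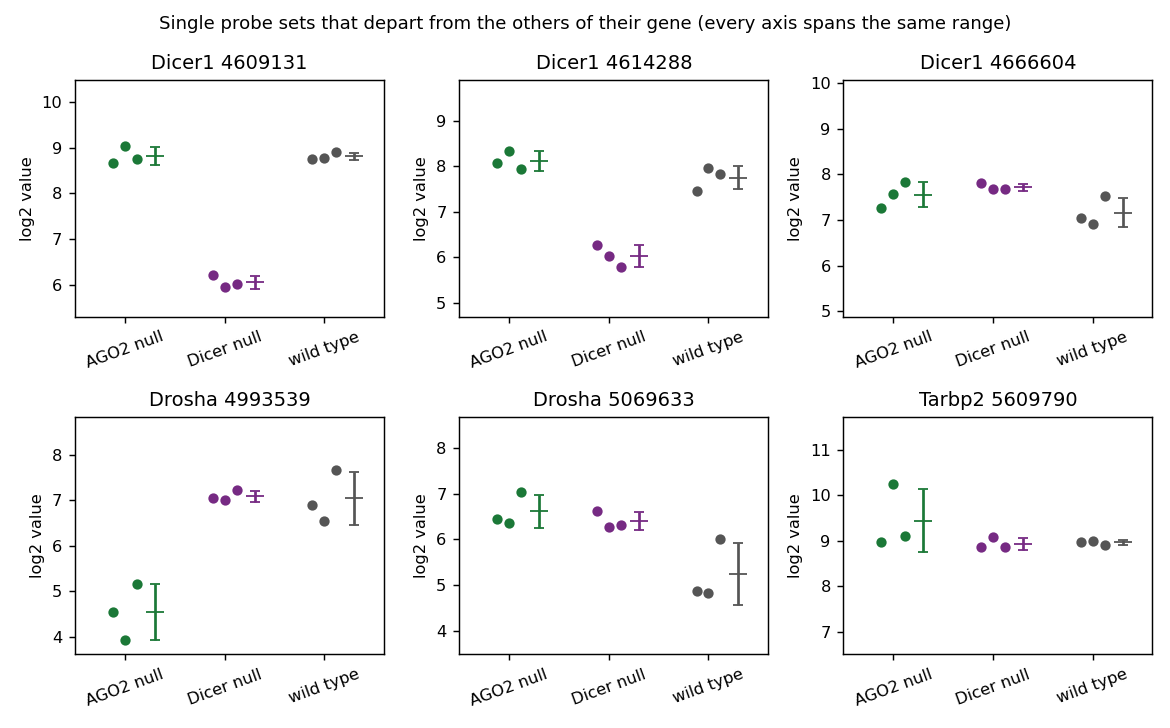
Log2 values per sample of 6 probe sets of Dicer1, Drosha and Tarbp2, with the mean ± SD of 3 samples beside the points. They were chosen because their differences from the wild type were among the lowest or highest of their gene. Not all were tested or called by the splicing index. Every axis spans the same number of log2 units, so the Dicer null fall at Dicer1 4609131 and the AGO2 null fall at Drosha 4993539 can be compared by eye.

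In AGO2 null cells the Dicer1 probe sets moved the other way, by less. Of the 40, 38 had a positive difference from the wild type and 6 were called higher, against 15.4% of all probe sets called (9.07% higher, 6.35% lower), with a median of 0.30 beside 0.04 over all probe sets. These 6 are 15% of the 40, near the share of all probe sets called in either direction and above the 9.07% called higher. They became 1 without AGO2 null replicate 1 or 3 and in the fit of the 6 samples compared, 2 without wild type replicate 1 or 2, 12 with an offset of 50 and 11 with the filter on level. The largest were 5546669 and 4510642. Probe set 5546669 read 7.09, 6.62 and 7.09 in AGO2 null cells, 5.68, 5.77 and 5.88 in Dicer null cells and 5.80, 5.49 and 6.40 in wild-type cells, with AGO2 null above every wild-type sample by a difference of 1.03 (SE 0.23, limma adjusted p = 0.0164) that lost its call in 4 of 14 alternatives. For 4510642 the difference was 1.02 (limma adjusted p = 0.0448), with wild-type values of 7.99, 6.91 and 7.97 that were themselves spread widely, and this call was lost in 9 of 15 alternatives. Across the 40 probe sets the AGO2 null difference was larger where the wild-type value was lower (Pearson r = -0.603, Spearman rho = -0.576). For the Dicer null difference r was -0.367. Both describe probe sets of a single gene that share the same samples. The wild-type value enters both quantities with opposite sign, so noise in it alone lowers r, and nothing is concluded for AGO2 null cells. The splicing index was called lower at 5 Dicer1 probe sets, from -0.66 to -0.38 and lowest at 4407624 (limma adjusted p = 0.0151). Over all members 2 were higher and 20 lower of 132, against 7.67% of all tested (2.93% higher, 4.74% lower). The 5 Dicer1 calls became 2 when the mean of the probe sets was subtracted, 1 without the filter on level, and 0 to 4 on leaving out a sample, with 0 without AGO2 null replicate 1 or 3.

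Drosha differences from the wild type were nearly all positive in Dicer null cells and of either sign in AGO2 null cells. In Dicer null cells 41 of the 43 had a positive difference, with a median of 0.32, and 9 were called higher and none lower. These 9 are 20.9% of the 43, against 8.93% of all probe sets called higher and 21.1% called in either direction. After quantile normalization 17 were called higher and after median centring 21, and without Dicer null replicate 1 only 5. In AGO2 null cells 3 were called higher, 3 lower and 37 not called, with a median of -0.07. Over all probe sets 9.07% were called higher and 6.35% lower in AGO2 null cells. On leaving out a sample the higher calls were 0 to 4 and the lower ones 1 to 4, with no higher call without AGO2 null replicate 3 or wild type replicate 1, and 1 in each direction without AGO2 null replicate 1 or wild type replicate 2. Quantile normalization or median centring gave 7 lower calls and an offset of 50 gave 10. One probe set carried the widest difference of any member from the wild type in this line. Probe set 4993539 read 4.54, 3.94 and 5.15 in AGO2 null cells, 7.04, 7.00 and 7.22 in Dicer null cells and 6.89, 6.54 and 7.67 in wild-type cells. All AGO2 null samples lay below all others, with a difference from the wild type of -2.49 (SE 0.34, limma adjusted p = 0.00127), while Dicer null minus wild type was 0.05. This call held in every alternative run in which the probe set was tested, with differences between -2.79 and -1.3, the smallest size with an offset of 50. Its AGO2 null values lay well below the exon-level sample medians of 6.93 to 7.10, and it was not tested for the splicing index.

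Other Drosha probe sets were higher in both null lines. Probe set 4638731 read 9.44, 9.32 and 9.74 in AGO2 null cells, 9.55, 9.67 and 9.45 in Dicer null cells and 8.73, 8.26 and 9.02 in wild-type cells, with differences of 0.83 (SE 0.20, limma adjusted p = 0.0218) for AGO2 null and 0.89 (SE 0.20, limma adjusted p = 0.0114) for Dicer null cells. Its wild-type samples lay below all null samples, and the AGO2 null call was lost in 4 of 15 alternatives. Probe set 5069633 read 6.45, 6.36 and 7.04 in AGO2 null cells, 6.62, 6.28 and 6.31 in Dicer null cells and 4.86, 4.83 and 6.02 in wild-type cells. Its differences of 1.38 for AGO2 null (limma adjusted p = 0.0192) and 1.17 for Dicer null cells (limma adjusted p = 0.0299) both rest on wild-type samples spread over more than a log2 unit, and the calls were lost in 4 and 5 of 14 alternatives. Probe set 5235979, at -0.58 in AGO2 null cells (limma adjusted p = 0.029), fell there by level and by splicing index (-0.56, limma adjusted p = 0.025), and lost its call by level in 6 of 15 alternatives and by index in 6 of 12.

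**Figure D4:**
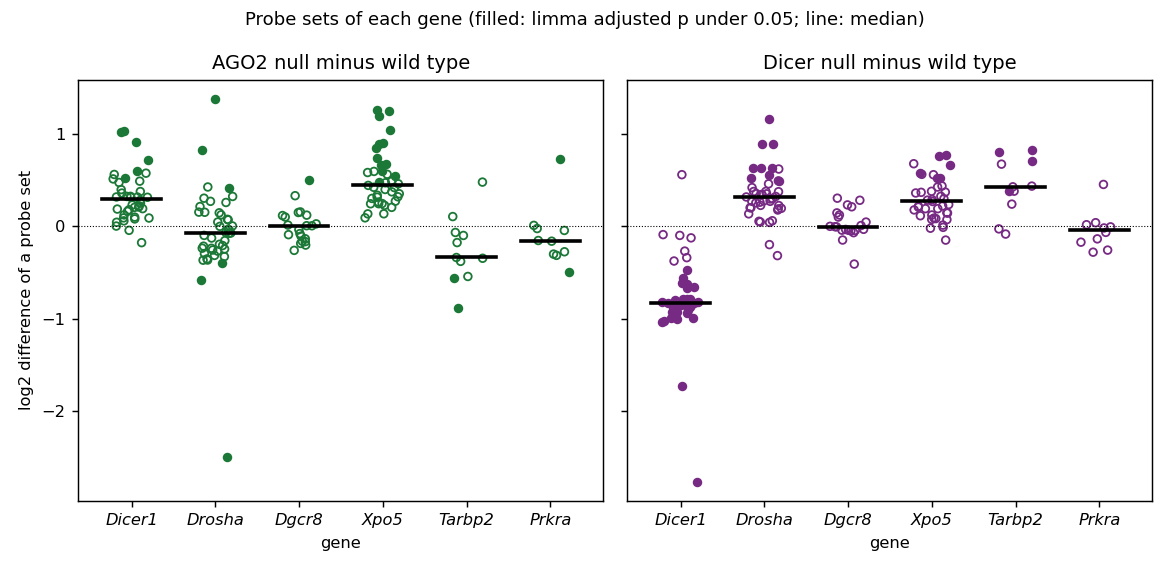
Differences of every probe set from the wild type, in log2 units, for AGO2 null (left) and Dicer null cells (right), with 1 point per probe set, filled where called by limma, and a line at the median of each gene. The Dicer1 cloud lies below 0 in Dicer null cells with 2 points far under it, Xpo5 lies above 0 in AGO2 null cells throughout, and a single Drosha point stands at -2.49.

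Xpo5 differences from the wild type were mostly positive in both null lines, and a minority of probe sets passed. In AGO2 null cells all 39 had a positive difference, from 0.09 to 1.26 with a median of 0.44, and 13 were called higher and none lower, against 9.07% of all probe sets called higher. A fit without the Dicer null samples called 8, as did the fit without wild type replicate 1. In Dicer null cells 36 of 39 were positive with a median of 0.27, and 6 were called higher, against 8.93% of all. Leaving out any 1 Dicer null sample reduced these to 3, and median centring brought them to 11. Probe set 4677702 read 9.25, 9.42 and 9.58 in AGO2 null cells, 8.82, 9.00 and 8.95 in Dicer null cells and 7.92, 8.11 and 8.44 in wild-type cells. The 3 groups did not overlap, and the differences from the wild type were 1.26 for AGO2 null (SE 0.16, limma adjusted p = 0.000742) and 0.77 for Dicer null cells (SE 0.16, limma adjusted p = 0.00721). Probe set 5131922 had nearly the same differences, 1.25 and 0.76. At the other end stood 5522925, at 0.09 for AGO2 null and -0.15 for Dicer null cells, neither called. The splicing index was called lower at 11 of 30 tested Xpo5 probe sets in AGO2 null and at 6 in Dicer null cells, 5522925 among them, against 4.74% and 3.73% of all tested. The index subtracts the median of all 39 probe sets, while only the 30 brighter ones were tested. Without this filter on level it was called lower at 3 of 39 in each null line. With the mean subtracted it was called lower at 2 in AGO2 null and 1 in Dicer null cells, and higher at 2 in AGO2 null cells. On leaving out a sample it was called lower at 3 to 13 and 2 to 5. The count for AGO2 null cells was lowest without AGO2 null replicate 1 or 3. That for Dicer null cells was lowest without Dicer null replicate 1 or 3. No Xpo5 probe set differed in level between AGO2 null and Dicer null cells by the test on all 9 samples, while up to 5 did in the alternatives run.

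Tarbp2 probe sets differed between the null lines. Of these, 9 of 11 were called lower in AGO2 null than in Dicer null cells and none higher, with a median of -0.81, against 18.7% of all probe sets called (12.6% higher, 6.08% lower). Against the wild type, 4 were called higher in Dicer null cells (8.93% of all probe sets) and 2 lower in AGO2 null cells (6.35%). The AGO2 null count was 1 to 3 on leaving out a sample, and 1 without AGO2 null replicate 3, any 1 Dicer null sample, or wild type replicate 1 or 3. Probe set 4807815 read 8.06, 8.13 and 8.06 in AGO2 null cells, 9.05, 8.96 and 9.03 in Dicer null cells and 8.66, 8.75 and 8.49 in wild-type cells, so that the 3 groups did not overlap. Its differences from the wild type were -0.55 for AGO2 null (SE 0.11, limma adjusted p = 0.0092) and 0.38 for Dicer null cells (SE 0.11, limma adjusted p = 0.0371). The AGO2 null call held in all 15 alternatives and the Dicer null call was lost in 9. The largest rises in Dicer null cells were 0.83 at 5348189 (limma adjusted p = 0.00939) and 0.81 at 5093656 (limma adjusted p = 0.00563). Probe set 5609790 had an AGO2 null replicate 2 far above its fellows (8.97, 10.24 and 9.11) and was not called. Its difference from the wild type was 0.48, and 0.08 without that sample.

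Prkra had no probe set called in Dicer null cells and 1 in each direction in AGO2 null cells. Over all probe sets 21.1% were called in Dicer null cells. The Prkra calls in AGO2 null cells are 20% of its 10 probe sets, against 15.4% of all (9.07% higher, 6.35% lower). Probe set 4859006, which was higher there by 0.73 (limma adjusted p = 0.0301), read 7.17, 6.91 and 7.23 in AGO2 null cells, 7.08, 6.77 and 6.63 in Dicer null cells and 6.72, 6.27 and 6.13 in wild-type cells, and its call was lost in 5 of 14 alternatives. Probe set 5209290 was lower by 0.49 (difference -0.49, limma adjusted p = 0.0443), a call lost in 10 of 15 alternatives. For Dgcr8, with a median of -0.0029, none of 21 probe sets was called in Dicer null cells. In AGO2 null cells 1 was, and that probe set, 5227114, read 7.71, 7.34 and 7.55 in AGO2 null cells, 7.45, 7.26 and 7.21 in Dicer null cells and 6.91, 7.05 and 7.12 in wild-type cells (0.51, limma adjusted p = 0.0337), and lost its call in 11 of 15 alternatives.

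The genes around the members were taken from a list of 45 factors of microRNA processing, loading and turnover, of which 35 were measured by rows with a single symbol. In Dicer null minus wild type 10 of the 35 were called higher, 6 lower and 19 not called, with a median of 0.02, against 26.8% of all rows called (11.2% higher, 15.7% lower). In AGO2 null minus wild type 6 were higher, 6 lower and 23 not called, with a median of 0.04, against 21.0% of all rows called (11.8% higher, 9.17% lower). None of the 7 Microprocessor helpers, such as the helicase Ddx5 and the splicing factor Srsf3, was called in Dicer null cells, and 1, the helicase Ddx17, was lower in AGO2 null cells (-0.29, limma adjusted p = 0.00221). Of the export genes, Rangap1, which activates the GTPase that powers nuclear export, was higher in Dicer null cells (0.42, limma adjusted p = 0.022) and Xpo1, a general exportin, was not called.

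Among the factors that mark precursors for decay, Lin28a had by far the largest rise of the list in Dicer null cells. It encodes the protein that binds let-7 precursors at the motif shown above. Lin28a read 5.71, 6.0 and 5.99 in AGO2 null cells, 8.02, 8.12 and 7.96 in Dicer null cells and 5.83, 6.10 and 5.87 in wild-type cells. AGO2 null and wild-type samples overlapped, and the Dicer null samples stood well above both, by 2.10 over the wild type (SE 0.10, limma adjusted p = 3.89e-06). Tut7, which adds uridines to precursors, was lower in Dicer null cells, at 9.50 ± 0.02 against 9.92 ± 0.04 in the wild type (-0.42, limma adjusted p = 0.000324). The other 3 measured genes of this group were not called in either line.

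Of 9 measured Argonaute genes and partners, 4 were called higher and 1 lower in Dicer null cells, against 11.2% and 15.7% of all rows. In AGO2 null cells 1 was called higher and 3 lower, against 11.8% and 9.17%, and the rest were not called. Ago2, the gene that the other null line lacks, read 6.74, 6.92 and 6.65 in AGO2 null cells, 9.23, 9.15 and 9.04 in Dicer null cells and 8.24, 8.20 and 8.24 in wild-type cells. It was lower by 1.46 in AGO2 null (difference -1.46, limma adjusted p = 1.27e-05) and higher by 0.91 in Dicer null cells (limma adjusted p = 8.51e-05). Ago3 was higher in AGO2 null cells, at 8.51 ± 0.20 against 8.03 ± 0.15 in the wild type (0.48, limma adjusted p = 0.0211). This call was lost in the fit of the 6 samples compared (limma adjusted p = 0.0694) and without AGO2 null replicate 1 (0.0553) or wild type replicate 2 (0.0621). Tnrc6b, a partner through which Argonautes silence targets, was higher in Dicer null cells by 1.05 (limma adjusted p = 0.00106) in the row of highest mean and by 0.94 (limma adjusted p = 0.000176) in its other row. Its relative Tnrc6c was lower in AGO2 null cells by 0.56 (difference -0.56, limma adjusted p = 0.00502).

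Among other double-stranded RNA binding proteins, Adar, an enzyme that edits adenosine to inosine, was lower in both null lines. It read 6.85, 7.09 and 6.78 in AGO2 null cells, 6.39, 6.20 and 6.43 in Dicer null cells and 7.66, 7.43 and 7.65 in wild-type cells. The 3 groups did not overlap, with differences of -0.67 (limma adjusted p = 0.00365) and -1.24 (limma adjusted p = 8.54e-05). Stau2, known for carrying messages within cells, differed in opposite directions, at 0.39 in AGO2 null (limma adjusted p = 0.00183) and -0.48 in Dicer null cells (limma adjusted p = 0.000327). Among turnover genes, Tsn, which encodes a subunit of a small RNA nuclease, was higher in AGO2 null cells by 0.40 (limma adjusted p = 0.00204). Snd1, which encodes the nuclease Tudor-SN, read 9.44 in all 3 AGO2 null samples, 9.70, 9.68 and 9.72 in Dicer null and 9.21, 9.17 and 9.19 in wild-type cells. Its groups did not overlap and both differences from the wild type passed, 0.25 for AGO2 null (limma adjusted p = 0.00289) and 0.51 for Dicer null cells (limma adjusted p = 3.71e-05). The AGO2 null values of Snd1 were identical as deposited (SD 0), so that group adds nothing to the spread behind these p-values.

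**Figure D5:**
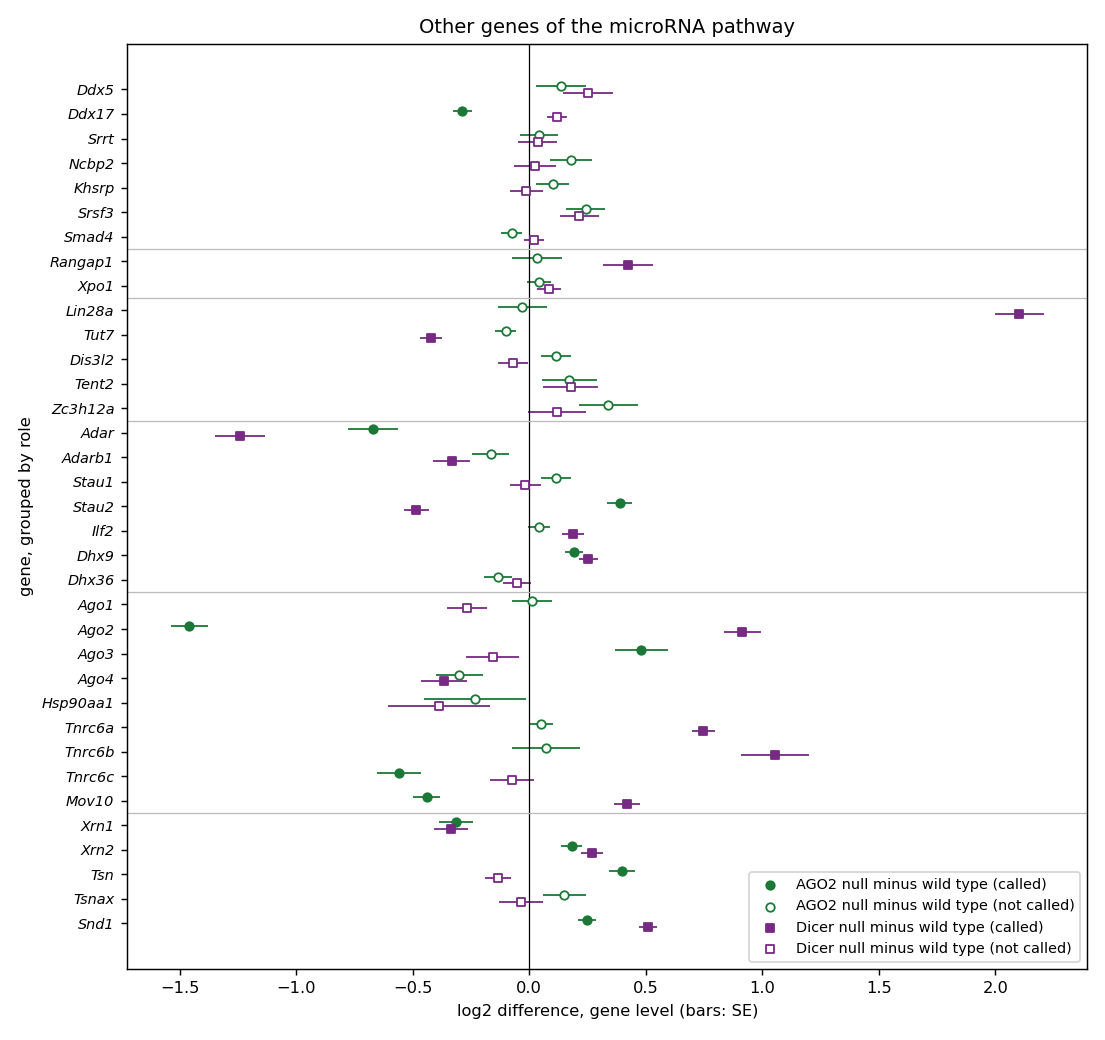
Differences from the wild type, in log2 units with bars of 1 SE, of the 35 measured genes of the list around the members, grouped by role and filled where called by limma, for AGO2 null and Dicer null cells. Lin28a in Dicer null cells stands at 2.10, and Ago2 lies at -1.46 in AGO2 null and 0.91 in Dicer null cells.

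The gene-level rows whose pattern over the 9 samples was most like that of Dicer1 were sought by Pearson's r among 3899 rows whose group means spanned at least 0.5. The 5 highest were Thy1 (r = 0.9988), a surface glycoprotein of fibroblasts, Grb10 (0.9985), an adaptor of growth factor receptors, Tnc (0.998), a matrix protein, Uap1 (0.9973), an enzyme of amino sugar synthesis, and Adam23 (0.9973). All were highest in AGO2 null and lowest in Dicer null cells. Thy1, for example, averaged 10.40 ± 0.13 in AGO2 null and 6.24 ± 0.11 in Dicer null cells, against 9.40 ± 0.04 in the wild type. The pattern was common, since 741 of the 3899 rows had an r over 0.9, and the 9 samples form 3 groups, so that r mostly reflects the 3 group means.

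Markers of fibroblasts moved with the same groups. Of 10 fibroblast markers, 8 were lower and none higher in Dicer null than in wild-type cells, while 6 were higher and 1 lower in AGO2 null cells. Over all rows 11.2% were higher and 15.7% lower in Dicer null cells, and 11.8% were higher and 9.17% lower in AGO2 null cells. Their log2 summed level was 14.08 to 14.11 in AGO2 null and 13.25 to 13.27 in Dicer null cells, against 13.76 to 13.84 in the wild type, the same order as Dicer1. Fap, which encodes a protease of activated fibroblasts, stood at 7.43 in AGO2 null and 4.02 in Dicer null cells, against 7.31 in the wild type. Its AGO2 null difference of 0.12 was not called (limma adjusted p = 0.46). The marker called lower in AGO2 null cells was Pdgfrb (-0.44, limma adjusted p = 0.0355), and Vim was not called in either line. The 10 markers include Thy1, named above for its likeness to Dicer1. Of 5 epithelial markers, Krt18 and Krt19 were higher in both null lines than in the wild type, and the log2 summed level was 10.03 to 10.49 in AGO2 null and 11.85 to 11.95 in Dicer null cells, against 8.57 to 8.78 in the wild type. Epcam and Cdh1, which define epithelia, were not called. Of the 5 leukocyte, 5 endothelial, 3 neural and 3 pluripotency markers, 1 passed in Dicer null cells (Cd68, lower) and 2 in AGO2 null cells (Cd68, lower, and Kdr, higher). Over all rows 26.8% were called in Dicer null and 21.0% in AGO2 null cells. The part of these markers in the results above was not tested.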

How the data were processed

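RNA of 9 MEF samples was measured on Affymetrix Mouse Exon arrays. The authors deposited log2 values in separate gene-level and exon-level tables. How they were corrected, summarised and normalized is not given in the sources used here. The submitters' processing notes name mm8 alone as a build. Values were used as deposited. Sample medians were 6.28 to 6.37 in the gene-level and 6.93 to 7.10 in the exon-level table, and no detection measure was used. Rows with 1 symbol in the platform's annotation were named (14996 and 209279), with symbols updated through RefSeq. Sequences are from RefSeq, build GRCm38.p6.

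The test was that of limma 3.58.1 (lmFit and eBayes, R 4.3.3) on all 9 samples with group means as terms, and p-values adjusted by Benjamini-Hochberg over all rows of a table. The splicing index was tested for genes with at least 4 probe sets at or above the median level, and their probe sets at or above the 25th percentile. Scripts were tested on simulated data. Alternatives were quantile normalization, median centring, an offset of 50, a filter on level, a fit of 6 samples, a replicate block and leaving out samples. All members were named, with each gene's 2 lowest and 2 highest probe sets per comparison (5 for Dicer1), probe sets with a called index difference of at least 1, the 3 largest called rises and falls of the pathway list and the 5 rows most like Dicer1. Other probe sets and genes with values were chosen after these were seen. Members and lists were chosen with earlier results of these data known.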

Additional observations from a re-analysis of the deposited data

How the results depend on the processing

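No result changed direction in any alternative run while called. The count of members called for AGO2 null minus wild type at the gene level (2) was 1 after quantile normalization, with a replicate block and in a fit without the third genotype, and 1 to 2 on leaving out a sample. The 1 member called after quantile normalization was Drosha, which was lower (-0.16, limma adjusted p = 0.0456), and Xpo5 lost its call there. The Dicer1 rise in AGO2 null cells lost its call after quantile normalization (0.13, limma adjusted p = 0.0757). For Dicer null minus wild type 4 members were called by the median of the exon probe sets, against 2 at the gene level. Of the 164 probe sets, 30 were called for AGO2 null minus wild type, 47 with an offset of 50, 11 without the third genotype and 15 to 26 on leaving out a sample. The splicing index was called at 11 probe sets for Dicer null minus wild type, 7 without the filter on level, 6 with the mean subtracted and 7 with a replicate block, or 4 to 11 on leaving out a sample. For AGO2 null minus wild type these counts were 22, then 6, 12 and 14, or 3 to 20. For AGO2 null minus Dicer null the 8 calls became 3 to 11 on leaving out a sample. The cause of these changes was not tested. Leaving out a sample kept Dicer1 between -0.82 and -0.79 for Dicer null minus wild type and between 0.22 and 0.24 for AGO2 null minus wild type. Median centring moved the median of all probe sets for AGO2 null minus Dicer null to -0.08, against 0.08 as deposited. Same-numbered samples did not regularly deviate together (correlations of -0.0973 to 0.191 in the gene-level table), so the numbers were not taken as pairs. The wild-type samples that best matched AGO2 null replicates 2 and 3 did bear the same number (0.191 and 0.0815), unlike that of replicate 1. With the replicate block the AGO2 null minus wild type calls of Xpo5 (limma adjusted p = 0.0528) and Ago3 (0.0509) were lost. No detection measure was used, so the floor of a dim probe set is unknown, and 3 arrays of 1 line per genotype limit the precision.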
